A study of Mus musculus with 8 samples.

Results

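The semaphorins, plexins, neuropilins, ephrins and Eph receptors are 53 of the 55367 gene symbols listed in all 4 gene tables of the series. They were taken by symbol: 20 semaphorins of classes 3 to 7 (Sema), 9 plexins (Plxn), 2 neuropilins (Nrp), 8 ephrins (Efn) and 14 Eph receptors (Eph). No expression value entered the choice. All 53 identifiers were found with the same version in the GENCODE M21 annotation of mouse build GRCm38 (mm10). They lie on 19 chromosomes. Chromosome 5 carries Sema3a, Sema3c, Sema3d, Sema3e, Epha5 and Ephb4, and chromosome 3 carries Efna1, Efna3, Efna4, Sema4a and Sema6c.

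Hippocampal cells sorted as CD45- Thy1- came from Foxp3-DTR+ mice and from their Foxp3-DTR- littermates. Both genotypes received diphtheria toxin, and 2 mice were pooled into the 1 library of each genotype. Foxp3-DTR+ mice carry the toxin's receptor in Foxp3-expressing regulatory T cells, which the toxin depletes. The hippocampal comparison therefore sets depleted against toxin-treated, non-depleted animals, and untreated hippocampus was not analysed here. Meningeal CD4+ T cells (CD45+ CD3+ CD4+) came from Foxp3-GFP mice in replicate 1 and from B6.WT mice in replicate 2, with no treatment. Ages, toxin doses and the number of meningeal donors are not given in the sources used here, and p-values then measure the spread between these samples, which may be technical.

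Semaphorins are secreted or membrane-bound ligands that repel or attract growing axons and migrating cells. They signal through plexins, and most secreted class 3 members need a neuropilin as binding partner. Ephrins are membrane-anchored ligands, A-type by a lipid anchor and B-type by a transmembrane domain, and bind Eph receptor tyrosine kinases on neighbouring cells, with signalling into both cells. In the adult brain both systems are known from oligodendrocyte lineage cells, blood vessels, astrocytes and newborn neurons, and several semaphorins also act in T cells.

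The 2 hippocampal libraries held 7105 cells (DTR-negative) and 5849 cells (DTR-positive) after filtering, with a median of 6116 and 4579 unique molecular identifiers (UMIs, counted RNA molecules) per cell. The meningeal T cells used numbered 1444 in replicate 1 and 3187 in replicate 2, with medians of 2929 and 1626 UMIs. The 2 hippocampal libraries shared 18 barcodes and the 2 meningeal libraries 554. Hippocampal cells were put in a class when at least 3 of the 6 markers of that class were detected, with a lead of at least 2 over every other class, and no member served as a marker. In the DTR-negative and DTR-positive libraries this gave 3728 and 2635 mature oligodendrocyte-like, 730 and 925 oligodendrocyte precursor-like, 1020 and 1157 astrocyte-like, 507 and 360 endothelial-like, 187 and 156 pericyte-like, 51 and 39 fibroblast-like and 181 and 141 neuroblast-like cells. Choroid plexus-like cells (109 and 24) and differentiating oligodendrocyte-like cells (47 and 15) were used for levels alone. The labels describe neurons and glia, but no cell met the neuron rule, which allows up to 0.0422% and 0.0513% of cells. In a class, the median number of markers detected of its own list was 4 to 6 and of any other list at most 2. The class met its limits exactly (3 markers, or a lead of 2) in 444 and 361 cells.

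Levels are given in CPM, counts per 1000000, here UMIs of a gene per 1000000 UMIs summed over a class in 1 library. Because 1 UMI stands for 1 tagged molecule, CPM do not scale with transcript length. Each pair of values is in the order DTR-negative, DTR-positive library. Intervals in brackets are exact 95% intervals and cover counting error only. A class was tested against the mean of the other 6 classes on the log2 scale with edgeR's quasi-likelihood test over 12935 genes, and a gene was called at an adjusted p under 0.05 with at least a 2-fold difference. This fitted log2 difference is large wherever other classes have 0 UMIs and is no bound, so levels are given first. Each standard error (SE) is the size of a fitted difference over the square root of its F statistic, and is not a separate estimate. Of the 53 members, 43 passed the filter on low counts and 23 reached 50 CPM in a class in both libraries. Of these 23, 21 had the same highest class in both libraries. In such sums, fewer expressing cells and less RNA per cell cannot be told apart.

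**Figure D1:**
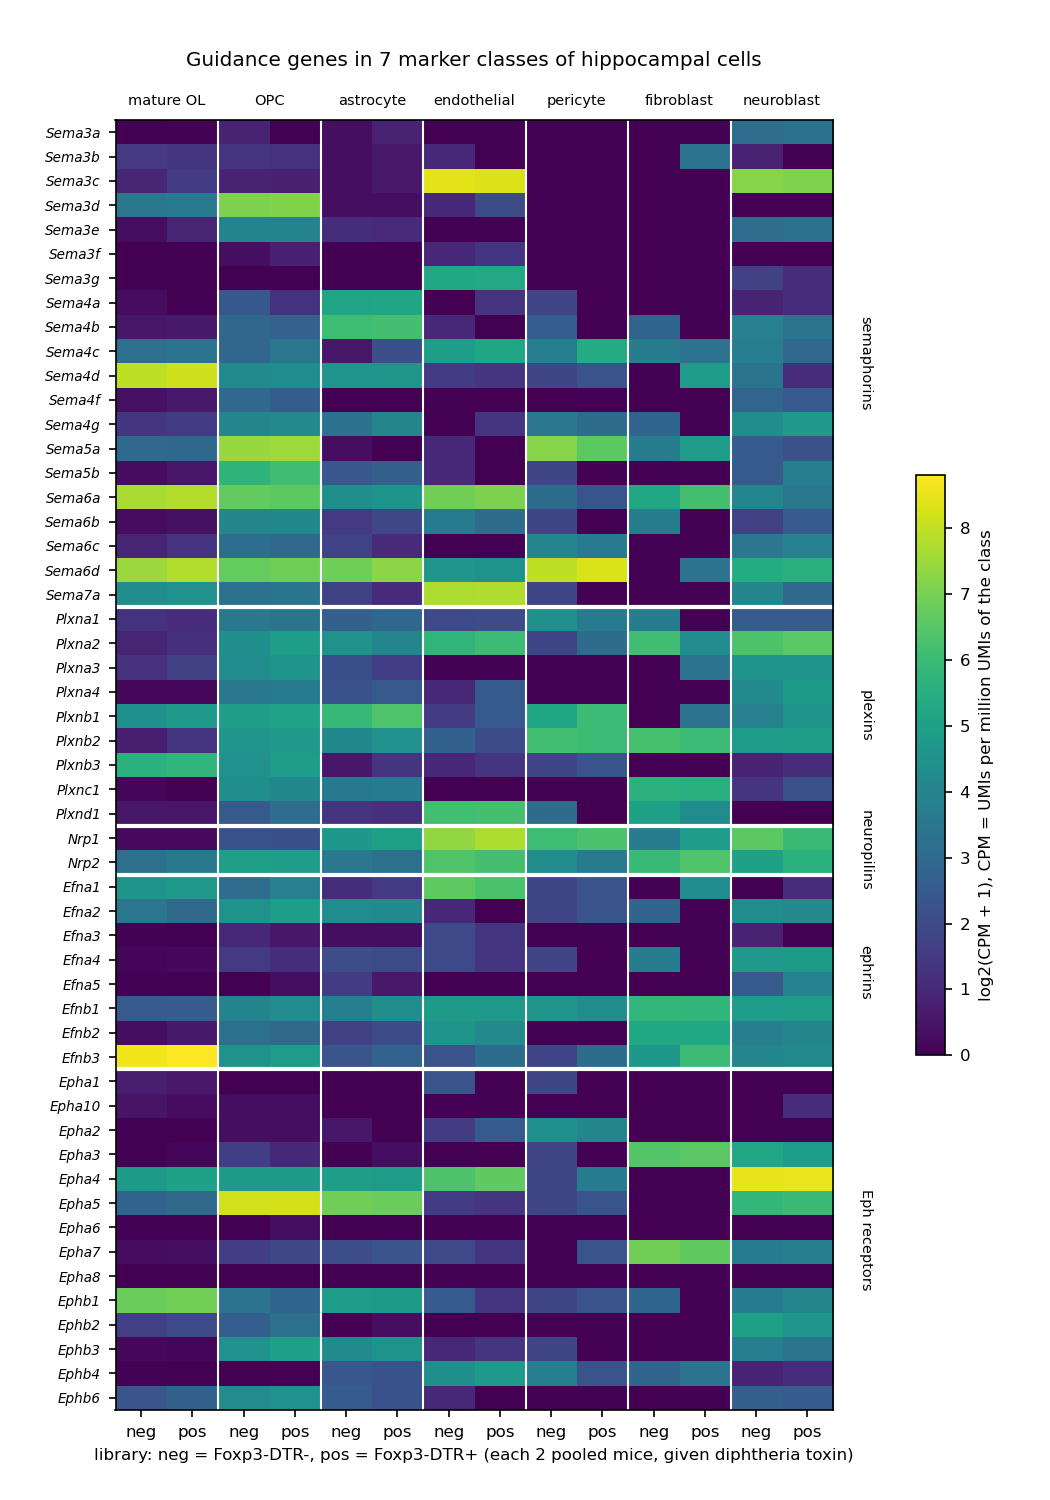
Level of the 53 members (vertical axis, by family) in 7 marker classes and 2 libraries (horizontal axis), as log2(CPM + 1) by colour. Efnb3 was brightest in mature oligodendrocyte-like cells, Epha5 in precursors, Sema3c in endothelial-like cells and Epha4 in neuroblast-like cells, with alike colours in the paired columns of each class. OL, oligodendrocyte. OPC, oligodendrocyte precursor.

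Of the secreted class 3 semaphorins, Sema3d was highest in precursors, and Sema3c and Sema3g in endothelial-like cells. Sema3d stood at 134 and 141 CPM in oligodendrocyte precursor-like cells and at 10.2 and 11.5 CPM in mature oligodendrocyte-like cells, the next class. The precursor level was 13.2-fold (11.5 to 15.1) and 12.3-fold (10.6 to 14.3) higher, and the remaining classes were at 0 to 3.08 CPM. Sema3c stood at 353 and 323 CPM in endothelial-like cells and at 148 and 136 CPM in neuroblast-like cells. No other class exceeded 1.87 CPM, so Sema3c marked 2 unrelated classes, and the endothelial level was 2.38-fold higher than the neuroblast one in both libraries. Sema3g reached 37.2 and 38.5 CPM in endothelial-like cells and at most 2.36 CPM elsewhere. The fitted differences of the endothelial class were 9.26 ± 0.20 (log2 ± SE) for Sema3c and 9.58 ± 0.68 for Sema3g (edgeR adjusted p of 4.12e-287 and 1.20e-40). The neuroblast call of Sema3g rests on 3 UMIs and 1 UMI. Sema3e was highest in precursor-like cells, at 14.6 and 14.9 CPM.

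Sema7a, a semaphorin held at the membrane by a lipid anchor, was another endothelial ligand, at 210 and 217 CPM. Mature oligodendrocyte-like cells came next with 18.8 and 21.0 CPM, and the endothelial level was 11.2-fold (9.54 to 13.0) and 10.3-fold (8.50 to 12.5) higher. The 250 bases before the RefSeq start sites of these 3 endothelial semaphorins are shown to compare their base composition (RefSeq, GRCm38.p6, all on the plus strand, chr5:17574566-17574815 for Sema3c, chr9:57939862-57940111 for Sema7a and chr14:31217623-31217872 for Sema3g). Capitals mark GGAAG on either strand, 1 form of the core letters of ETS-family sites, and other forms are not marked.
Sema3c: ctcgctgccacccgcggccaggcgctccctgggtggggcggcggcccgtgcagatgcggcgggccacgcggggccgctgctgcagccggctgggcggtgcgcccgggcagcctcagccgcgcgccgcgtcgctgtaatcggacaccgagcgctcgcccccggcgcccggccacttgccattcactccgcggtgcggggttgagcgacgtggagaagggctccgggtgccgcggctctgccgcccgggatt
Sema7a: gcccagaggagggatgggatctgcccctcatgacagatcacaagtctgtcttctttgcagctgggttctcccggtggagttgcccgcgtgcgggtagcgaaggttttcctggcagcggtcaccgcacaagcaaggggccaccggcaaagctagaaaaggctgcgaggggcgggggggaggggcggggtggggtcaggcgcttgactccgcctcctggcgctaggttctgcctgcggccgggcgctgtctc
Sema3g: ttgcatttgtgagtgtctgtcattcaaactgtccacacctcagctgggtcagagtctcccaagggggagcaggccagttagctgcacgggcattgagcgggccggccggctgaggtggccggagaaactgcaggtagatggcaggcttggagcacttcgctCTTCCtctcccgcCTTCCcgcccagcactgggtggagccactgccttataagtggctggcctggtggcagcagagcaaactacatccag
The 3 stretches differ in composition. The Sema3c stretch has 78.4% G and C with a CpG observed-to-expected ratio of 1.02, Sema7a has 66.4% and 0.63, and Sema3g has 60.4% and 0.35. GGAAG occurs 2 times before Sema3g, both times on the minus strand, and not in these letters before Sema3c or Sema7a. Of 61 such stretches of 47 members, 72.1% hold GGAAG against 64.1% of all 32851 RefSeq stretches of the same length. Stretches rich in CpG (over 50% G and C, ratio over 0.6) made up 52.5% of the member stretches and 30.8% of all. A match is a description of the letters and not a bound site.

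Of the membrane-bound class 4 semaphorins, Sema4d was highest in mature oligodendrocyte-like cells among the 7 tested classes, and Sema4a and Sema4b in astrocyte-like cells. Sema4d, whose receptor is Plxnb1, stood at 252 and 287 CPM in mature oligodendrocyte-like cells and at 23.3 and 24.1 CPM in astrocyte-like cells. It was called higher in both of these classes. It was also abundant in the few differentiating oligodendrocyte-like cells, at 421 and 347 CPM. Sema4b was highest in astrocyte-like cells, at 65.8 and 72.0 CPM, 4.92-fold (3.02 to 8.58) and 7.62-fold (3.81 to 17.8) above neuroblast-like cells. Sema4a followed the same class at 34.6 and 36.5 CPM and did not exceed 4.43 CPM in the other 6. The fitted astrocyte differences were 5.06 ± 0.20 for Sema4b and 6.49 ± 0.35 for Sema4a (edgeR adjusted p of 2.33e-117 and 5.34e-68). Sema4c was instead an endothelial and pericyte ligand, at 29.5 and 35.4 CPM in the first and 12.9 and 42.3 CPM in the second, where 5 and 11 UMIs were counted.

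Among classes 5 and 6, Sema5a and Sema5b were precursor ligands, while Sema6a and Sema6d were spread over several classes. Sema5a stood at 173 and 182 CPM in precursor-like cells and at 147 and 96.2 CPM in pericyte-like cells. The ratio between the classes, 1.18 (0.90 to 1.57) and 1.89 (1.27 to 2.94), exceeded its counting error in the DTR-positive library alone. Sema5b stood at 51.6 and 67.3 CPM in precursor-like cells and at 4.72 and 13.0 CPM in neuroblast-like cells, the next class. Sema6a was highest in mature oligodendrocyte-like cells, at 204 and 221 CPM, followed by endothelial-like cells at 119 and 134 CPM and precursor-like cells at 102 and 95.7 CPM. Sema6d was highest in pericyte-like cells, at 247 and 319 CPM, then in mature oligodendrocyte-like cells at 177 and 219 CPM and in astrocyte-like cells at 116 and 156 CPM. Endothelial-like cells, the neighbours of pericytes in the vessel wall, had 23.8 and 21.5 CPM of Sema6d. The pericyte level exceeded that of oligodendrocytes 1.397-fold (1.13 to 1.71) and 1.46-fold (1.16 to 1.81).

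Of the ephrins, Efnb3 was an oligodendrocyte ligand, Efna1 an endothelial one and Efnb1 most abundant in fibroblast-like cells. Efnb3 stood at 395 and 448 CPM in mature oligodendrocyte-like cells, at 22.2 and 28.5 CPM in precursor-like cells and at 3.96 and 5.83 CPM in astrocyte-like cells. Its fibroblast values of 24.8 and 64.4 CPM rest on 4 and 7 UMIs. Efna1 reached 97.2 and 77 CPM in endothelial-like cells, 4.27-fold (3.44 to 5.25) and 3.01-fold (2.21 to 4.02) above mature oligodendrocyte-like cells. Efnb1 reached 55.7 and 55.2 CPM in fibroblast-like cells, from 9 and 6 UMIs, and the interval of its ratio to neuroblast-like cells (0.83 to 4.16 and 0.65 to 4.89) included equal levels. Efnb2, a known arterial marker, was found at 22.9 and 16.9 CPM in endothelial-like cells and at 37.1 and 36.8 CPM in fibroblast-like cells, where 6 and 4 UMIs were counted. It had 0 UMIs in pericyte-like cells, which allows up to 7.72 and 11.5 CPM. Efna4 was highest in neuroblast-like cells, at 25.96 and 27.2 CPM.

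RNA released from lysed oligodendrocytes can add UMIs to other cells. As a rough measure, 4 abundant oligodendrocyte genes outside the class rule (Mbp, Mal, Cnp, Trf) were summed. In the other 6 classes they stood at 0.690% to 6.22% of their oligodendrocyte level. The source of these UMIs was not tested, and no doublet caller was run. Efnb3 in astrocyte-like cells was at 1.003% and 1.30% of its oligodendrocyte level, a share no higher than the 1.32% and 1.37% of the 4 genes there. Sema4d in astrocyte-like cells was at 9.24% and 8.40%, above that level. Sema4d in endothelial-like cells was at 0.758% and 0.537%, below the 3.33% and 3.19% of the 4 genes there.

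**Figure D2:**
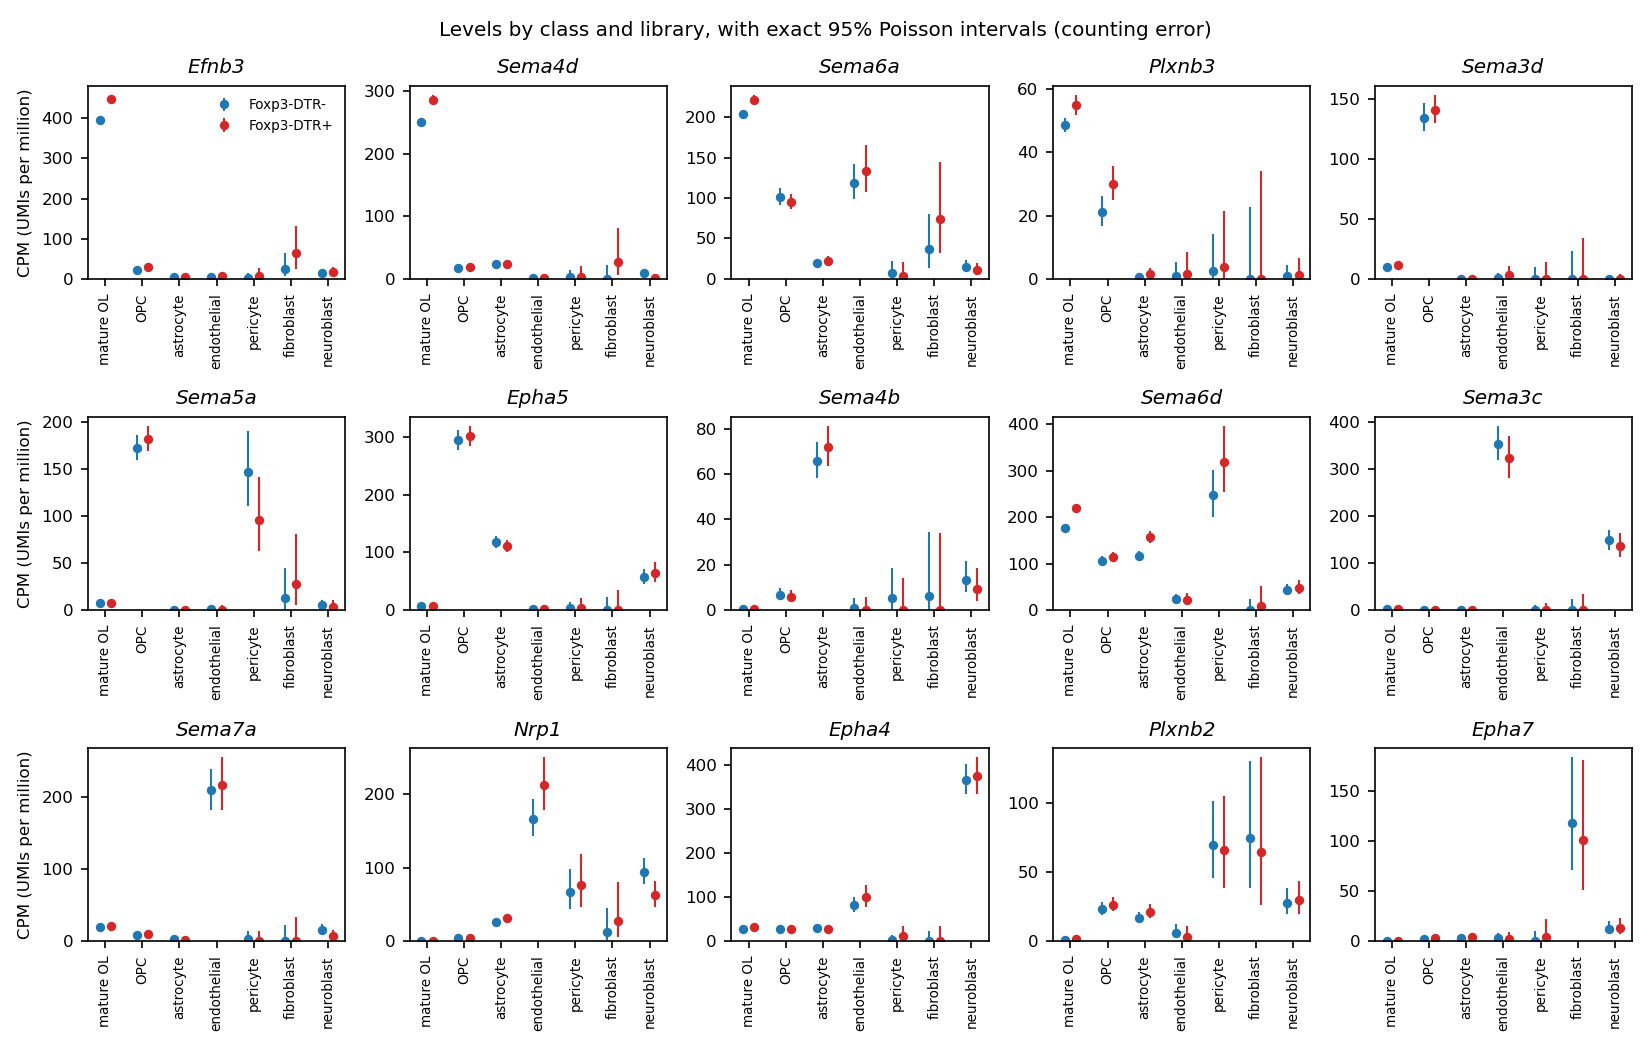
Level of 15 members in CPM (vertical axes, linear from 0) in the 7 classes (horizontal axes) of the DTR-negative (blue) and DTR-positive (red) libraries. Bars are exact 95% Poisson intervals of the summed count. Sema3c peaks in 2 classes (353 and 148 CPM in the DTR-negative library), Sema5a in 2 (173 and 147 CPM), and the bars are widest in fibroblast-like cells.

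The plexins differed in the class of their highest level. Plxnb3 stood at 48.6 and 54.9 CPM in mature oligodendrocyte-like cells, at 21.1 and 30.01 CPM in precursor-like cells and at no more than 3.85 CPM in the other 5 classes. The differentiating oligodendrocyte-like cells had 139 and 120 CPM, from 43 and 10 UMIs. Plxnb1, the Sema4d receptor, was highest in astrocyte-like cells, at 58.9 and 82.1 CPM, followed by pericyte-like cells at 36.0 and 65.4 CPM. The intervals of the ratio of these 2 classes, 0.95 to 3.03 and 0.77 to 2.18, included equal levels. Plxnb2 was found at 69.5 and 65.4 CPM in pericyte-like and at 74.3 and 64.4 CPM in fibroblast-like cells, and these 2 did not differ beyond counting error. Plxnd1, the plexin for which endothelial cells are best known, reached 69.6 and 73.9 CPM in endothelial-like cells. It stood at 31.0 and 18.4 CPM, from 5 and 2 UMIs, in fibroblast-like cells and at 4.70 and 7.81 CPM in precursors. Plxna2 was highest in neuroblast-like cells, at 81.0 and 92.1 CPM, and endothelial-like cells had 53.4 and 64.6 CPM. Its fibroblast values of 68.1 and 18.4 CPM (11 and 2 UMIs) disagreed between the libraries. The fitted fibroblast difference over both libraries was 1.47. On log2(CPM + 1), unfitted, fibroblast-like cells differed from the mean of the other classes by 2.15 in the DTR-negative library. In the DTR-positive library this difference was -0.04. In the DTR-negative library Plxna3 (22.8 CPM) and Plxna4 (17.3 CPM) were each highest in neuroblast-like cells. Precursor-like cells of that library had 18.5 CPM of Plxna3 and 10.4 CPM of Plxna4. In the DTR-positive library Plxna4 was again highest in neuroblast-like cells, at 27.2 CPM, but Plxna3 in precursor-like cells, at 22.4 CPM.

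Of the neuropilins, co-receptors of class 3 semaphorins, Nrp1 was called higher in endothelial-like, pericyte-like, neuroblast-like and astrocyte-like cells. Nrp2 was called higher in endothelial-like and fibroblast-like cells. Nrp1, which also binds vascular endothelial growth factor, stood at 167 and 212 CPM in endothelial-like cells, 94.4 and 62.6 CPM in neuroblast-like cells and 66.9 and 76.9 CPM in pericyte-like cells. Mature oligodendrocyte-like cells had 0.165 and 0.174 CPM of Nrp1, the lowest level of the 7 classes. Nrp2 stood at 82.9 and 73.9 CPM in endothelial-like and at 61.9 and 82.8 CPM in fibroblast-like cells (10 and 9 UMIs), in opposite order in the 2 libraries. The intervals of the ratio, 0.69 to 2.89 and 0.48 to 2.31, included equal levels. The fitted endothelial differences were 4.18 ± 0.15 for Nrp1 and 1.998 ± 0.18 for Nrp2 (edgeR adjusted p of 4.56e-134 and 1.12e-25). Endothelial-like cells thus held the ligands Sema3c and Sema3g together with both neuropilins and Plxnd1. Genes of the dissociation response (an 8-gene list with Fos and Hspa1a) summed to 17852 and 16351 CPM in endothelial-like and 14622 and 12454 CPM in pericyte-like cells, against 2092 and 2154 CPM in mature oligodendrocyte-like cells. Their part in the class differences was not tested.

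The 5 Eph receptors above 50 CPM had their highest levels in 4 classes. Epha4 was a neuroblast receptor, at 366 and 373 CPM, followed by endothelial-like cells at 81.0 and 100 CPM, with ratios of 4.51 (3.58 to 5.76) and 3.73 (2.85 to 4.95). Epha4 binds both A-type and B-type ephrins. Epha5, which binds A-type ephrins, stood at 295 and 301 CPM in precursor-like cells, 117 and 110 CPM in astrocyte-like cells and 56.6 and 63.8 CPM in neuroblast-like cells. Mature oligodendrocyte-like cells had 6.18 and 7.33 CPM of Epha5. Ephb1, a receptor of B-type ephrins, stood at 114 and 120 CPM in mature oligodendrocyte-like cells and at 28.2 and 26.7 CPM in astrocyte-like cells. Epha7 reached 118 and 101 CPM in fibroblast-like cells, from 19 and 11 UMIs, and 11.8 and 13.0 CPM in neuroblast-like cells. Epha3 reached 86.7 and 92.1 CPM in fibroblast-like cells, from 14 and 10 UMIs, and 37.8 and 29.5 CPM in neuroblast-like cells. Among the receptors under 50 CPM, Ephb4, a known venous marker, was highest in endothelial-like cells at 20.02 and 26.2 CPM. Epha2 was highest in pericyte-like cells at 20.6 and 15.4 CPM. Ephb2 was highest in neuroblast-like cells at 31.5 and 23.6 CPM, and Ephb3 in precursor-like cells at 20.9 and 30.7 CPM.

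The 10 members that did not pass the filter were Sema3a, Sema3b, Sema3f, Sema4f, Efna3, Efna5, Epha1, Epha6, Epha8 and Epha10. Sema3b was the highest of these, at 88.8 CPM from 9 UMIs in choroid plexus-like cells of the DTR-positive library, the class outside the test. Epha6 and Epha8 had 2 UMIs and 1 UMI in all classes together. Efna5 reached 14.2 CPM, from 12 UMIs, in neuroblast-like cells.

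Counted over all 53 members, neuroblast-like cells had 20 members called higher than the mean of the other classes and 4 called lower, where 18.6% and 14.8% of all tested genes were called. The 20 comprised 7 semaphorins, 3 plexins, Nrp1, 3 ephrins and 6 Eph receptors, among them Epha3, Epha4, Epha5, Epha7 and Ephb2. Precursor-like cells had 17 higher, of which 8 were semaphorins, and 2 lower (Nrp1 and Ephb4), against 21.3% and 7.04% of all genes. Astrocyte-like cells had 16 higher and 5 lower, against 21.8% and 7.17%. Endothelial-like cells had 15 higher and 10 lower, against 16.7% and 9.52%, and mature oligodendrocyte-like cells 14 higher and 11 lower, against 21.2% and 11.8%. Both neuropilins were among the lower 11 in oligodendrocytes. Pericyte-like cells had 10 higher and 6 lower, against 12.5% and 6.24%. Fibroblast-like cells had 9 higher and 4 lower, against 9.81% and 6.51%, and no semaphorin was called higher there. The median fitted log2 difference of the 43 tested members ranged from -1.33 in pericyte-like cells, where all genes had -0.11, to 1.42 in neuroblast-like cells, where all genes had 0.07. A member could pass the filter through its high class alone, so these counts describe the members and are no test of the set. With each cell thinned to 2000 UMIs, 75 calls over all classes were made in place of 143.

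Other genes of guidance signalling came from a list of 63, of which 57 were tested. The share of all genes called in each class, given above, is the background of these counts. In endothelial-like cells 16 were called higher (28.1%) and 6 lower (10.5%). Kdr, a receptor for vascular endothelial growth factor, stood there at 623 and 628 CPM, and Tiam1, a Rac activator, at 132 and 119 CPM. At the low end were Dpysl3 (0.953 and 0 CPM) and Chn1 (3.81 and 1.54 CPM). In neuroblast-like cells 17 were higher (29.8%) and 11 lower (19.3%). The highest were Crmp1 (238 and 189 CPM) and Dpysl5 (66.1 and 82.7 CPM), collapsin response mediator proteins of the semaphorin pathway, and the lowest Plxdc2 (2.36 and 1.18 CPM) and the integrin gene Itga1 (1.57 and 1.18 CPM). In precursor-like cells 17 were higher (29.8%) and 8 lower (14.04%), from the cell adhesion gene Chl1 (196 and 218 CPM) and Dpysl4 (22.4 and 31.5 CPM) to Itga1 (2.87 and 4.39 CPM) and Mical2 (0 and 0.488 CPM). In astrocyte-like cells 18 were higher (31.6%) and 4 lower (7.02%). Ngef, a nucleotide exchange factor downstream of Epha4, stood there at 60.1 and 61.4 CPM and Vav3, another exchange factor, at 22.8 and 26.2 CPM, against 1.73 and 1.85 CPM for Chn2 and 1.24 and 1.32 CPM for Rras2. In mature oligodendrocyte-like cells 13 were higher (22.8%) and 12 lower (21.1%). The kinase Pak1 stood there at 446 and 522 CPM and the Rac-inactivating Chn2 at 349 and 339 CPM, against 0.579 and 0.218 CPM for Itga1 and 0.1103 and 0.131 CPM for Mical1. In pericyte-like cells 19 were higher (33.3%) and 5 lower (8.77%), with Itga1 at 1292 and 1127 CPM, Plxdc1 at 203 and 219 CPM, and Mical3 and Pick1 at 0 and 3.85 CPM each. In fibroblast-like cells 4 were higher (7.02%) and 8 lower (14.04%), with Rnd3 at 192 and 184 CPM, Itga1 at 130 and 138 CPM, and Fyn and Src at 0 UMIs. The fibroblast sums held 161547 and 108636 UMIs in all, so 0 UMIs there does not exclude a low level. The value of 3.85 CPM in pericyte-like cells is 1 UMI.

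The second comparison asked how the members differed between hippocampus of regulatory T cell-depleted and non-depleted mice. With 1 library per genotype there is no test and no replicate check, and genotype and library cannot be told apart. Among 103 pairs of a member and a class with at least 50 UMIs, covering 41 members, 84 lay within 0.5 on the log2 scale. The share of all genes within 0.5 was not counted, so this describes the members alone. A 2-fold difference was passed by 2 pairs, both in mature oligodendrocyte-like cells, where 1.2% of all genes with 50 UMIs passed it. Plxnb2 stood at 0.662 and 1.53 CPM (log2 ratio 1.21, 0.42 to 2.02) and Sema3c at 0.937 and 1.87 CPM (1.0001, 0.32 to 1.69). Both are far below the class in which these genes are abundant. Without the 5 cells richest in a gene, Plxnb2 had 49 UMIs left in the class, under the minimum of 50, and Sema3c differed by 0.94. In the other classes 0 members passed 2-fold, where 0.842% of genes did in precursor-like, 0.731% in astrocyte-like, 1.3% in endothelial-like, 1.67% in pericyte-like, 2.5% in fibroblast-like and 1.29% in neuroblast-like cells. No member had 50 UMIs in fibroblast-like cells.

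The interval excluded equal levels for 24 of the 103 pairs on the higher side of the DTR-positive library (14.3% of 46629 pairs of any gene and a class) and for 3 on the lower side (8.53%). In mature oligodendrocyte-like cells these were 15 and 1 of 27 members (27.5% and 11.9% of all genes). With the interval set against the median of all genes there, 10 members lay higher and 1 lower. By that measure 1965 genes lay higher and 2401 lower, of 12391. In mature oligodendrocyte-like cells the 4 most abundant member ligands were slightly higher in the DTR-positive library, against a median of 0.08 for all genes of the class. Sema6d stood at 177 and 219 CPM (log2 ratio 0.31, 0.25 to 0.36). Sema4d differed by 0.19 (0.14 to 0.24), Efnb3 by 0.18 (0.15 to 0.22) and Sema6a by 0.11 (0.06 to 0.17), and with TMM scaling these 4 differences were 0.04 to 0.23. In astrocyte-like cells Plxnb1 stood at 58.9 and 82.1 CPM (0.48, 0.23 to 0.73) and Sema6d at 116 and 156 CPM (0.43, 0.25 to 0.60), where the median of all genes was 0.03. Plxnb1 in oligodendrocytes differed in the same direction (0.33, 0.17 to 0.49). In precursor-like cells Sema5b stood at 51.6 and 67.3 CPM (0.38, 0.11 to 0.65) and Plxnb3 at 21.1 and 30.01 CPM (0.51, 0.09 to 0.93). The 3 lower values were Efna2 in mature oligodendrocyte-like cells (10.0 and 7.24 CPM, -0.47), Plxna2 in astrocyte-like cells (22.0 and 15.6 CPM, -0.50) and Nrp1 in neuroblast-like cells (94.4 and 62.6 CPM, -0.59, -1.09 to -0.11). Mature oligodendrocyte-like cells had a median of 7637 and 6318 UMIs and astrocyte-like cells 3943 and 3198 UMIs in the 2 libraries. With cells thinned to 2000 UMIs, Plxnb1 in astrocyte-like cells was at 0.85. In mature oligodendrocyte-like cells thinning gave 0.37 for Sema6d, 0.091 for Efnb3, 0.014 for Epha4 (0.25 unthinned) and -0.094 for Plxnb3 (0.18 unthinned). The part of depth in the ratios was not tested beyond this.

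**Figure D3:**
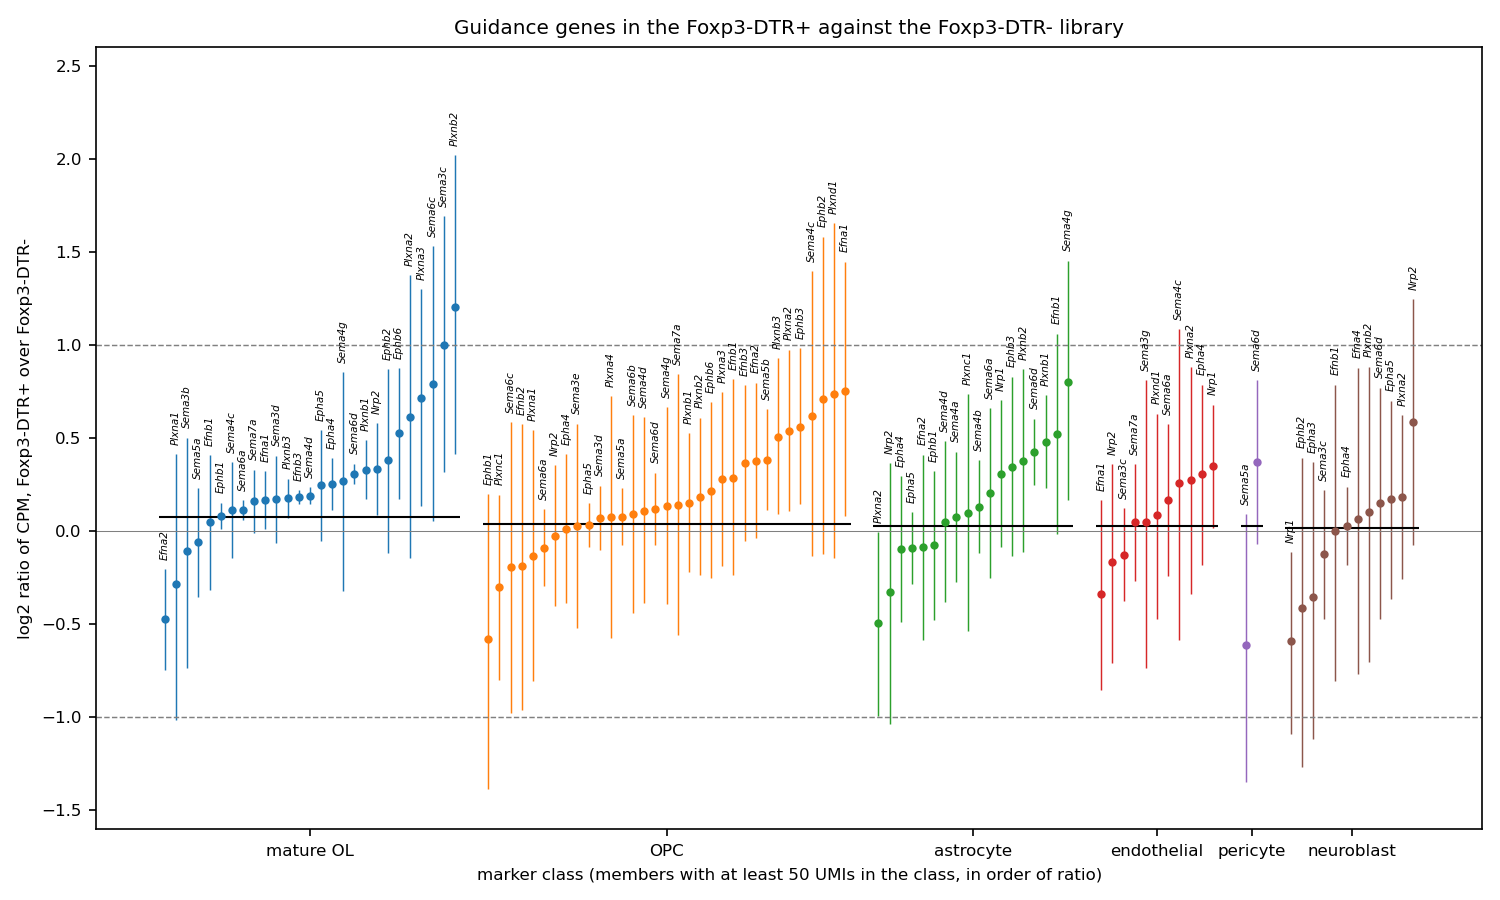
Log2 ratio of CPM in the DTR-positive over the DTR-negative library (vertical axis) for each member with at least 50 UMIs in a class, in order of ratio within 6 classes (horizontal axis). Bars are exact 95% intervals for counting error, black lines the median of all genes of the class and dashed lines 2-fold. Of the 103 points, 2 pass the upper dashed line and none the lower.

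The third comparison asked which members meningeal CD4+ T cells express and whether cells with Foxp3, the transcription factor of regulatory T cells, differ. T cells with at least 1 Foxp3 UMI numbered 103 in replicate 1 and 411 in replicate 2, and those with none 1341 and 2776. A cell without a Foxp3 UMI may still be a regulatory T cell, since 1 transcript is often missed. Median depth was 3596 and 2903 UMIs with and without Foxp3 in replicate 1 and 1637 and 1625 in replicate 2. The 6 T cell markers were detected in all 4 sums, at 4939 to 5229 CPM together, and both CD8 markers were at 0 UMIs. Of the 53 members, 15 had at least 20 UMIs over the 4 sums, 28 had 1 to 19 and 10 had 0. T cells thus showed a narrow set in which Sema4d, Nrp1, Sema4a, Sema4b and Plxnc1 each had over 100 UMIs. Levels were not compared with the hippocampus, because the series text and the labels name different kits for the T cells.

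Sema4d, a class 4 semaphorin known from T cells as CD100, stood at 111 CPM with and 76.5 CPM without Foxp3 in replicate 1, and at 136 and 128 CPM in replicate 2. The 2 groups overlapped, and the edgeR test did not separate them (log2 difference 0.24 ± 0.26, adjusted p = 0.99998). Nrp1, used as a marker of thymus-derived regulatory T cells in mice, stood at 89.8 CPM with and 51.3 CPM without Foxp3 in replicate 1, and at 124 and 59.8 CPM in replicate 2. The 2 Foxp3 values lay above both others. Sema4a, a ligand of T cell co-stimulation, went the other way, with 13.8 CPM with and 61.5 CPM without Foxp3 in replicate 1, and 32.6 and 72.8 CPM in replicate 2. Plxnd1 stood at 9.21 and 2.09 CPM in replicate 1 and at 10.5 and 1.54 CPM in replicate 2, from 4 and 9 and from 9 and 8 UMIs. The values with and without Foxp3 did not overlap for 4 members that lay higher with Foxp3 (Nrp1, Plxnd1, Sema4b and Sema6d, where 17.6% of all genes did so) and 1 that lay lower (Sema4a, 13.3%), of 11 tested.

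In the test without a replicate block, 0 of 10266 genes were called (0% in either direction), and 0 of the 11 members tested. At an unadjusted p under 0.05 there were 430 genes, with 3 members among them, and DESeq2 called 32 genes and 0 members. The replicate number pairs the sums, since both sums of a number were drawn from 1 library of the same mice. With the replicate block, edgeR called 232 genes higher (2.26%) and 187 lower (1.82%), and 3 members. Nrp1 was higher in cells with Foxp3 (log2 difference 0.92 ± 0.17, edgeR adjusted p = 7.66e-05, against 0.91 and 0.833 without the block). Sema4a was lower (-1.46 ± 0.24, adjusted p = 8.81e-06, against -1.49 and 0.829). Plxnd1 was higher (2.43 ± 0.69, adjusted p = 0.0227, against 2.37 and 0.894), on 30 UMIs in all. With the filter on low counts, the calls of these 3 genes thus depend on the block. With neither filter nor block, 1 member was called, where 206 of 20382 genes were. When a Cd4 UMI was also required, 50 and 133 cells with Foxp3 were left. With the block 0 of 5 members tested were then called, where 123 of 8211 genes were. At an unadjusted p under 0.05 there were 3 members and 816 genes in this edgeR fit. Nrp1 was at 0.56 (adjusted p = 0.374, edgeR) and Sema4a at -1.18 (adjusted p = 0.112, edgeR), and Plxnd1 was not tested. Plxnd1 also missed the threshold with the block at a hashtag margin of 20 (adjusted p = 0.240) and at 2 Foxp3 UMIs (0.1505), in edgeR.

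Sema4b stood at 18.4 CPM with and 15.1 CPM without Foxp3 in replicate 1 and at 38.4 and 17.3 CPM in replicate 2, and missed the threshold with the block (adjusted p = 0.117, edgeR). With the block and a hashtag margin of 2 it was called higher (0.79, adjusted p = 0.0126, edgeR). Plxnc1, the receptor of Sema7a, stood at 9.21 and 12.1 CPM in replicate 1 and at 19.8 and 19.99 CPM in replicate 2. Ephb6, Sema6d, Efnb1, Plxna1 and Sema4f had 33 to 75 UMIs each and were not called. For Ephb6 and Sema6d the value with Foxp3 was higher in replicate 1 (13.8 over 3.25 CPM for Ephb6, 11.5 over 1.62 CPM for Sema6d). In replicate 2 Ephb6 had 3.49 CPM with and 4.04 CPM without Foxp3, and Sema6d 4.65 and 4.04 CPM. Of the 63 genes of guidance signalling, 39 were tested and 0 called without the block, and with it Crmp1 was higher and Chn2, Itga1 and Itgb1 lower in cells with Foxp3. Crmp1 had 34.5 CPM with and 18.1 CPM without Foxp3 in replicate 1, then 45.3 and 23.4 CPM in replicate 2.

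**Figure D4:**
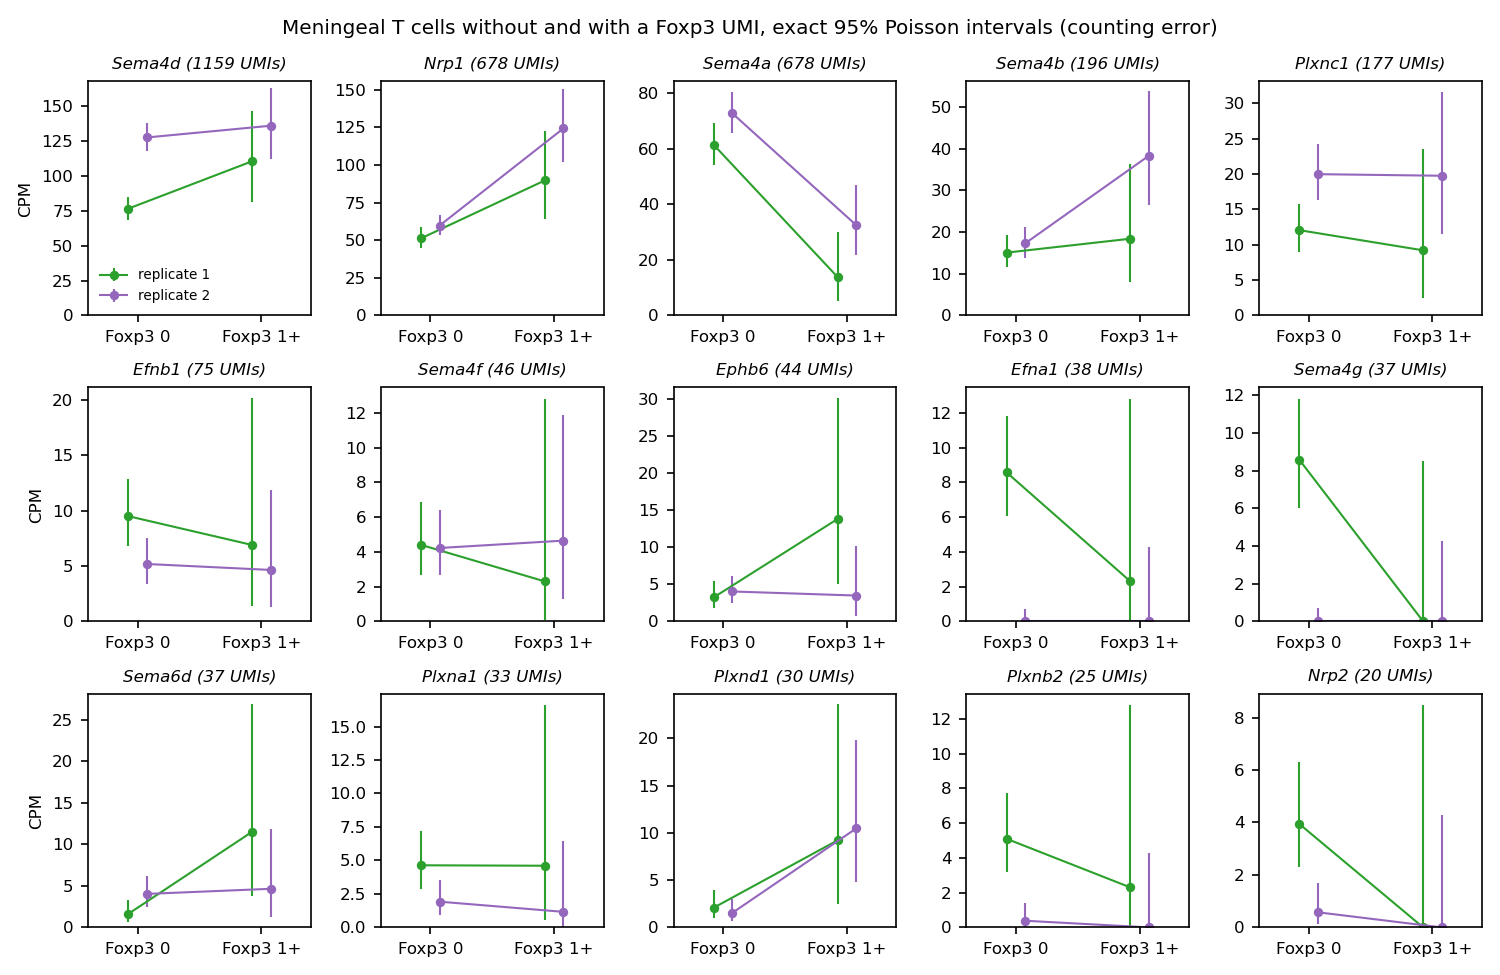
Level in CPM (vertical axes, linear from 0) of the 15 members with at least 20 UMIs in T cells without and with a Foxp3 UMI (horizontal axes), for replicate 1 (green) and replicate 2 (purple), with exact 95% Poisson intervals for counting error. Nrp1 lies higher with Foxp3 and Sema4a lower in both replicates, and Efna1 and Sema4g have UMIs in replicate 1 alone.

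Some members were found in 1 replicate alone: 9 members had at least 5 UMIs in replicate 1 and 0 in replicate 2. The share of all genes that did so was not counted. Efna1 and Sema4g had 37 UMIs each in replicate 1 cells without Foxp3 (8.58 CPM), in 17 cells each, and the 5 richest cells held 64.9% of them. In replicate 2 both were at 0 UMIs in 2776 cells without Foxp3. In cells without Foxp3, fibroblast and pericyte markers moved with the replicate. The 6 fibroblast markers summed there to 37.1 CPM in replicate 1 and 4.61 CPM in replicate 2. The 6 pericyte markers summed to 32.7 and 8.07 CPM. With Foxp3 the fibroblast list was at 32.2 and 3.49 CPM, with 5 and 1 of its 6 genes detected. The pericyte list with Foxp3 had the opposite order, at 2.30 and 5.81 CPM, from 1 UMI and 5 UMIs. Endothelial markers were at 87.5 to 121 CPM in all 4 sums, with 3 to 6 of the 6 genes detected. Myeloid markers were at 173 to 210 CPM in all 4 sums. The part of such cells in these values was not tested.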

How the data were processed

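Per gene and barcode, the deposited tables give unnormalized UMI counts, which the authors made with Cell Ranger 6.1.0 (hippocampus), 4.0.0 (meninges replicate 1) and 6.0.0 (replicate 2), per the file headers, on mm10, per the submitters' processing notes, which also name Seurat. The deposited hashtag tables hold counts per antibody tag. The labels name hashtag 7 for meninges replicate 1 with a sequence that the tables give to another tag, and the name decided. The labels' protocols name a 3' kit for all samples and the series design a 5' kit for T cells. Without stated strand use in counting, reads of a member and an antisense gene cannot be told apart.

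Cells needed 500 genes and under 15% (hippocampus) or 10% (meninges) mitochondrial UMIs. A meningeal barcode needed 10 counts of its hashtag and 5 times the next one, 2 of 6 T cell markers and no marker set of another cell type (limits set after seeing the files). These steps left out 87 and 140 cells with too few T cell markers and 130 and 86 with markers of another type. No doublet caller was run. Cells with 3 or more markers of a second class (490 and 363) stayed in if the lead held, and leaving them out was an alternative. No annotation of the authors was used, and class names are rebuilt from markers.

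Counts were summed per class or Foxp3 group and library and tested with edgeR 4.0.16 (TMM, filterByExpr, quasi-likelihood, Benjamini-Hochberg over all genes; R 4.3.3), with the library as a block for classes and no block for Foxp3, which was left out of its own test. DESeq2 1.42.0 was an alternative. The tests were tested on simulated data. The deviations of the 2 replicate 1 sums correlated with r = 0.55 over 10147 genes. Named members reached 50 CPM in a class in both libraries, passed 2-fold between libraries, or had 20 UMIs in the T cells; a few others were named after their values were seen. Guidance signalling genes named were the 2 highest and 2 lowest called per class. Promoters and motifs were picked after seeing the values. Members and lists were chosen with earlier results of these data known. TCR tables were not used here, and 1 gene of the list for oligodendrocyte RNA is not reported here and was left out of its sum.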

Additional observations from a re-analysis of the deposited data

Results flagged for a closer look

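For 2 members the difference between the DTR-positive and the DTR-negative library had opposite signs in 2 classes, with each interval on its own side of equal levels. The difference between the classes was not tested, because each genotype has 1 library. How many of all genes show such opposite signs was not counted. Nrp1, the semaphorin and growth factor co-receptor, was higher in the DTR-positive library in endothelial-like cells (log2 ratio 0.35, 0.016 to 0.68). It was lower in neuroblast-like cells (-0.59, -1.09 to -0.11). The endothelial interval of Nrp1 included the median of all genes of that class, 0.028, so set against this median Nrp1 was not higher there. In the neuroblast-like cells of the DTR-positive library 5 cells held 30.2% of the Nrp1 UMIs. Plxna2, a plexin of class 3 and class 6 semaphorins, was higher in precursor-like cells (0.54, 0.11 to 0.97) and lower in astrocyte-like cells (-0.50, -0.995 to -0.00425).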

How the results depend on the processing

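Of 1402 alternative values of the class calls, 1293 kept their direction and, where tested, their call, 105 kept their direction and lost the call (38 of these with cells thinned to 2000 UMIs) and 4 reversed. The reversed values were Sema4c in pericyte-like cells (-0.46) and Sema3g in neuroblast-like cells (-1.46), both thinned, Plxna2 in fibroblast-like cells without the DTR-negative library (-0.035, and 2.15 without the other) and Sema4d in neuroblast-like cells without the DTR-positive library (0.030, and -3.13 without the other). Over all pairs of a member and a class, thinning gave 75 calls in place of 143, 17 lower in place of 42, and 9, 9, 4, 4 and 8 higher in mature oligodendrocyte-like, precursor-like, pericyte-like, fibroblast-like and neuroblast-like cells. Fewer UMIs and cells entered that fit. DESeq2 gave 66 lower calls over all pairs. The cause was not tested. The values without 1 library are differences of log2(CPM + 1) within the other library and are not fitted, unlike the rest.

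In T cells, 3 members were called with the replicate block (419 of 10266 genes), against 0 members and 0 genes without it. With no filter and no block 1 member was called (206 of 20382 genes). With the block and a hashtag margin of 2 it was 4 members (617 of 11010 genes). With the block there were 2 members at a margin of 20 (381 of 9976 genes) and 2 at 2 Foxp3 UMIs (339 of 10059). Cells thinned to 1000 UMIs also gave 2 with the block (167 of 7568). Combinations of the block with another setting were chosen after seeing the data, as was leaving out cells with markers of a second class. No tested value of Nrp1, Sema4a or Plxnd1 reversed. Reversed values were those of Efnb1 at margin 20 (0.00125, with the block 0.10), Ephb6 without replicate 1 (-0.21, and 2.09 without replicate 2), Plxna1 at 2 Foxp3 UMIs (0.26, with the block 0.43), Plxnc1 at margin 2 (0.00100), at 2 Foxp3 UMIs (0.26, with the block 0.19) and thinned (0.87, with the block 0.72), and Sema4f at margin 20 (0.22, with the block 0.25) and without replicate 1 (0.14, and -0.94 without replicate 2). These rest on 33 to 177 UMIs. Leaving out a replicate leaves no residual degrees of freedom, so those values are log2 ratios of CPM in the replicate kept and have no test.

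Between the hippocampal libraries, 2 pairs passed 2-fold (Plxnb2 and Sema3c in mature oligodendrocyte-like cells), against 1 with TMM, 6 with a minimum of 20 UMIs, 1 without cells holding markers of a second class, 0 thinned, where both genes fell under 50 UMIs, and 0 without the 5 richest cells, where Plxnb2 fell under 50 UMIs and Sema3c was at 0.94. Plxnb3 in mature oligodendrocyte-like cells reversed when thinned (-0.094).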
